A study of Mus musculus with 112 samples.

Results

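Dorsal skin of HrasKO mice was compared with dorsal skin of wild-type (WT) mice. The arrays were chosen by their tissue and genotype labels, which gave 15 of the 112 arrays in the series: 6 from HrasKO mice and 9 from WT mice, with 1 array per mouse. The mice were males of an FVBBX backcross, in which F1 hybrids of Mus spretus and the FVB strain were crossed to FVB. Each mouse received a single application of the carcinogen DMBA at 8 weeks of age and then the tumour promoter TPA 2 times a week, and carried metastatic disease when killed. The skin is labelled as of normal histology, and the other arrays hold papillomas, carcinomas and metastases of the same 15 mice. The labels give no age at death, do not say how the Hras allele was made and do not say whether HrasKO mice were homozygous. Because the mice came from a backcross, the Hras genotype also marks strain alleles linked to Hras on chromosome 7, and the effects of these cannot be told apart.

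Hras is a small GTPase that passes signals of growth factor receptors, among them the EGF receptor family, to the Raf, MEK and ERK kinases. Sprouty proteins and dual-specificity phosphatases are induced by the pathway and restrain it. In mouse skin treated with DMBA and TPA, an activating mutation of Hras is the usual first event of a papilloma, and Nras is a close relative of Hras.

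Levels are log2 intensities from robust multi-array averaging (RMA), a scale on which a difference of 1 is a doubling. The 15 arrays had medians of 6.11 to 6.28 and correlated with each other at 0.894 to 0.989. The skin of HrasKO mouse 1706 stood apart, with a median correlation to the other skins of 0.927, against 0.949 to 0.970 for the other 14. Keratinocyte markers, the keratins, desmosomal and hemidesmosomal genes of the epidermis, were high in every skin: their mean level ran over 10.37, 11.30 and 11.64 (lowest, median, highest) in HrasKO skins and over 10.83, 11.36 and 11.69 in WT skins. Mouse 1706 had the lowest keratinocyte mean of the 15 and the highest skeletal muscle mean, at 11.45. Hras was not analysed here, so the targeted gene gave no check of the genotype labels. Without mouse 1706, 17 of 31 gene list medians and 29 of 98 named differences moved by over 1.5 times or changed sign, and none of these 29 genes passed the test given next. These medians are given with and without it.

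Of 18772 genes tested with limma (batch as a covariate, Benjamini-Hochberg adjusted p under 0.05), 1 passed, which is 0.00533% of the genes, and it was higher in HrasKO skin: Lrrc56. No gene passed as lower. At an unadjusted limma p under 0.05 there were 2062 genes, 11% of those tested, 831 of them higher (4.43%) and 1231 lower (6.56%) in HrasKO skin. Under 0.001 there were 69 genes, or 0.368%. The median log2 difference over all genes was 0.00 and the median absolute difference 0.13.

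Lrrc56 encodes a leucine-rich repeat protein that is needed for motile cilia in humans. It is the next gene to Hras in the annotation and is read in the opposite direction from it. Its promoter window is shown because its bases are largely those of the Hras window. In the RefSeq table of build GRCm38.p6, the window of 250 bases before to 50 bases after the first Lrrc56 start lay at chr7:141193880-141194179 on the plus strand. The Hras window lay at chr7:141193955-141194254 on the minus strand. The 225 bases present in both windows are in capitals, and the start sites implied by the windows were 126 bases apart:
Lrrc56: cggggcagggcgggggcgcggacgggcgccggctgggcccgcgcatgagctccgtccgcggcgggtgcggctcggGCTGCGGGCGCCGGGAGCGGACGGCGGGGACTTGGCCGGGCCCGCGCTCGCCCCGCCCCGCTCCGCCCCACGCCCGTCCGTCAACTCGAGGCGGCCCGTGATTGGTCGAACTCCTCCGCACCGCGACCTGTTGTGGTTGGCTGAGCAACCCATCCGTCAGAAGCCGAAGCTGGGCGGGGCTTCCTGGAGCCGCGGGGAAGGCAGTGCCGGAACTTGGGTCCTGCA
This window was 76.7% G and C, against a median of 52.7% over all promoter windows, and base content bears on how often a motif occurs. The motif GGGCGG or its reverse CCGCCC occurred 4 times in this window, and at least 1 time in 35.7% of all 32851 promoter windows of the table. The motif CCAAT or its reverse ATTGG occurred 1 time, and in 37.4% of the windows. The motif TATAAA or its reverse TTTATA did not occur in the window, and was held by 13.6% of them. A second Lrrc56 window, at chr7:141194893-141195192, shared no bases with the Hras window.

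Lrrc56 levels were 6.42, 6.72 and 6.78 (lowest, median, highest of 6) in HrasKO skins, against 5.505, 5.96 and 6.14 (of 9) in WT skins. Every HrasKO skin was above every WT skin. Groups that did not overlap occurred in 48 of all genes tested (0.256%): HrasKO skins were above WT skins in 8 (0.0426%) and below in 40 (0.213%). The group means of Lrrc56 were 6.66 ± 0.141 in HrasKO skins and 5.88 ± 0.223 in WT skins (SD, n = 6 and 9). The fitted log2 difference was 0.80 (SE 0.0921, limma adjusted p = 0.00896), or 1.74-fold with a 95% confidence interval of 1.52 to 1.99. In batch 1, with 5 HrasKO and 8 WT mice, the difference of means was 0.79, and in batch 2, with 1 mouse of each genotype, it was 0.85. The difference stayed between 0.75 and 0.88 in the 26 alternative fits that kept the gene, and the limma adjusted p ran over 0.000183 to 0.0955, passing in 19 of them. It was 0.0540 without HrasKO mouse 1509, 0.0507 without HrasKO mouse 1616, 0.0606 without HrasKO mouse 1664 and 0.0606 without WT mouse 1456, so the call rests on each of these mice. Mice 1664 and 1456 were the pair of batch 2, so leaving out either gave the same value as batch 1 alone. It was 0.0429 without mouse 1706. With the skeletal muscle level as a covariate the difference was 0.77 and the limma adjusted p 0.0955.

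The same separation of Lrrc56 was seen in the tumours of these mice, as values from the same animals rather than independent evidence. In papillomas the mouse means averaged 7.02 ± 0.136 in HrasKO mice and 6.07 ± 0.223 in WT mice (SD, n = 4 and 9). Carcinomas gave 7.58 ± 0.196 in HrasKO mice and 6.08 ± 0.219 in WT mice (SD, n = 6 and 9). Metastases gave 7.51 ± 0.116 in HrasKO mice and 6.32 ± 0.385 in WT mice (SD, n = 6 and 9). Carcinomas of HrasKO mice were labelled spindle or mixed, while those of WT mice also held squamous ones. Metastases of both genotypes held squamous and spindle types in unlike shares. The mouse means pool these types, so tumour type was not separated from genotype there. Mouse means of the genotypes did not overlap in any of the 4 tissues. The share of all genes with such a gap was counted in skin (0.256%) and not in the tumours. The papilloma difference was 0.95 (SE 0.128, limma adjusted p = 0.0825). In a joint fit of both tissues with mouse as a random block, whose estimates differ a little from those of the separate fits, papilloma minus skin was 0.18 (SE 0.158, limma p = 0.254, adjusted p = 0.992), which did not pass.

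**Figure D1:**
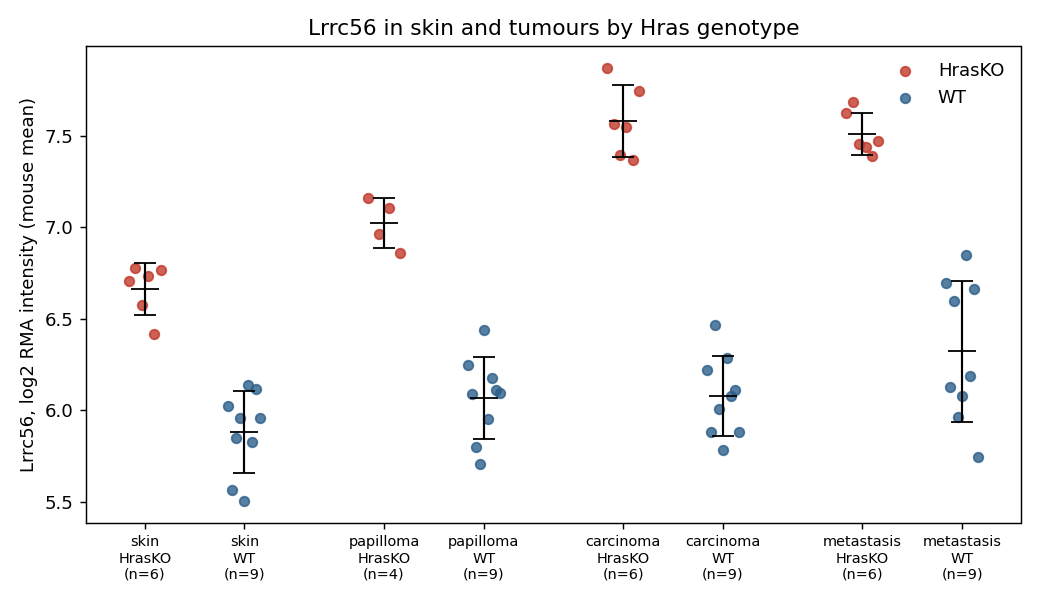
Lrrc56 log2 RMA intensity (vertical axis) in skin, papilloma, carcinoma and metastasis, with HrasKO left of WT in each tissue; points are mouse means and bars the mean ± SD. In skin the HrasKO mice lie between 6.42 and 6.78, all above the WT mice, whose highest value is 6.14.

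The other genes around Hras were read in the order of the annotation, 20 measured genes on each side. Lrrc56 was the 1 of these 40 that passed the threshold, beside the 0.00533% of all genes. At an unadjusted p under 0.05, 3 of the 40 were higher and 4 lower, against 4.43% and 6.56% of all genes. Positive differences were found in 24 and negative ones in 16, with a median of 0.05 and a range of -0.45 to 1.82.

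On the far side of Hras from Lrrc56, Rnh1, an inhibitor of ribonucleases, had a log2 difference of -0.27 (SE 0.13), and Ptdss2, a phosphatidylserine synthase, 0.22 (SE 0.167). Ano9, of the anoctamin family, had 0.36 (SE 0.282), Sigirr, a restraint on interleukin-1 and Toll-like receptors, 0.04 (SE 0.115), and the desmosomal plakophilin Pkp3 -0.45 (SE 0.371). Beyond Lrrc56, the Ras association domain gene Rassf7 had 0.13 (SE 0.245), the interferon regulator Irf7 0.58 (SE 0.494) and the cadherin family member Cdhr5 0.03 (SE 0.244). Cdhr5 and Sigirr had negative values with quantile normalization repeated over the skins (-0.06 and -0.01). Without mouse 1706, Rnh1 had -0.15, Ptdss2 0.34, Ano9 0.60, Sigirr 0.07, Pkp3 -0.15 and Rassf7 0.40. None of these 8 passed.

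Phrf1, a PHD and RING finger gene, had levels of 7.26, 7.60 and 7.78 (lowest, median, highest) in HrasKO skins, against 7.59, 7.96 and 8.25 in WT skins. The groups overlapped, and the log2 difference was -0.40 (SE 0.099, limma adjusted p = 0.260). In papillomas of the same mice it was -0.38 (SE 0.138, limma adjusted p = 0.801).

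The largest difference among the 40 was that of Cox8b, a cytochrome c oxidase subunit of striated muscle and brown fat, named here after its value was seen. Its levels were 8.02, 8.67 and 10.86 in HrasKO skins and 5.14, 6.64 and 10 in WT skins (lowest, median, highest). Its log2 difference was 1.82 (SE 0.808, limma adjusted p = 0.433), and the groups overlapped. Skeletal muscle markers had positive differences too, as given further on, and their part in the Cox8b value was not tested.

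**Figure D2:**
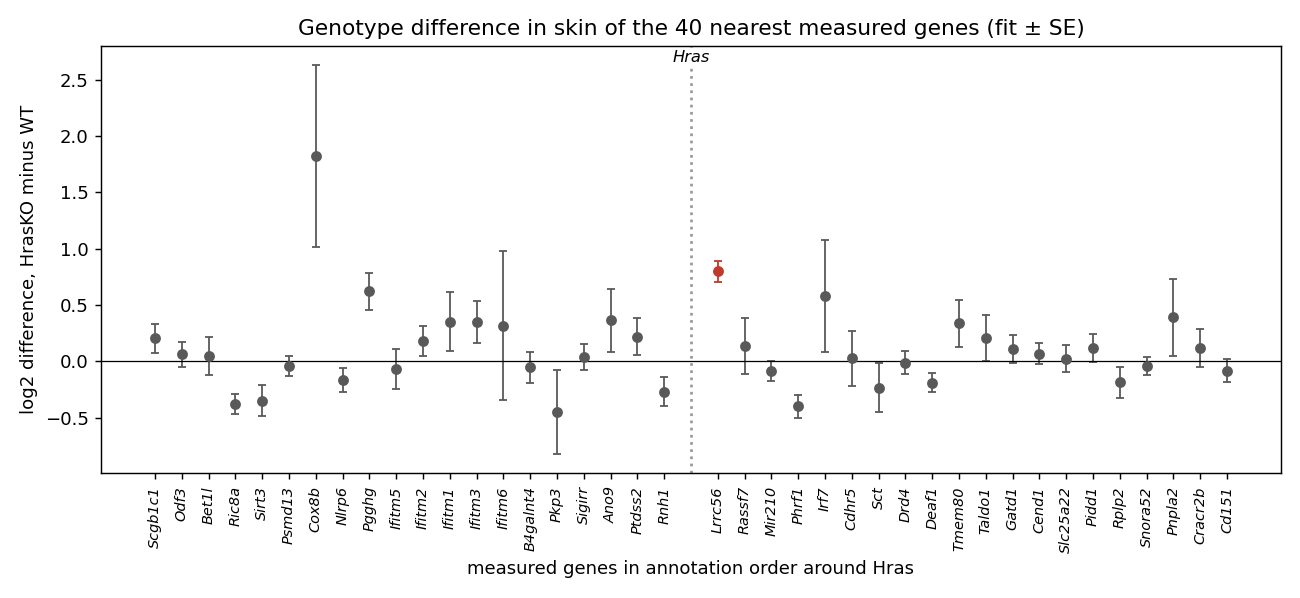
Fitted log2 difference, HrasKO minus WT skin (vertical axis, ± SE), of the 20 measured genes on each side of Hras in annotation order (horizontal axis, dotted line at Hras). Lrrc56, in red, is the gene that passed, at 0.80; the others run over -0.45 to 1.82 with wider errors at the extremes.

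Chromosome 7 held 1645 of the genes tested, 8.78% of those with a chromosome. It held 10 of the 69 genes under an unadjusted limma p of 0.001 (14.5%), 194 of the genes under 0.05 (9.43%) and 8 of the 48 genes whose groups did not overlap. Of the chromosome 7 genes, 11.8% were under 0.05 and 0.608% under 0.001. Both shares were higher on chromosome 17 (15.4% and 0.793%) and on chromosome 18 (13.8% and 0.68%). The share under 0.05 was also higher on chromosomes 5, 8, 13 and 15, and both shares were lower on the rest. Among the 20 named genes of lowest p, 5 were on chromosome 7.

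Besides Lrrc56, 19 genes were named for their low p though they did not pass; 8 had positive and 11 negative differences, and 11 of the 20 had groups that did not overlap, beside 0.256% of all genes. Choice by low p favours such genes, so nothing is read from that count. Blk, a Src-family kinase known from B cells, had levels of 5.13, 5.53 and 6.32 in HrasKO skins, against 4.34, 4.70 and 5.17 in WT skins (lowest, median, highest). The ranges met at their ends, and the log2 difference was 0.91 (SE 0.145, limma adjusted p = 0.185). Other B cell genes in the skins are described with the immune markers.

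The zinc finger gene Zfp820 had 5.58, 5.75 and 6.37 in HrasKO skins, against 4.57, 4.68 and 5.64 in WT skins. Its difference was 0.95 (SE 0.17, limma adjusted p = 0.252). Olfr558, an olfactory receptor gene on chromosome 7, had 6.57, 7.43 and 7.50 in HrasKO skins, against 5.57, 5.98 and 6.74 in WT skins, a difference of 1.09 (SE 0.203, limma adjusted p = 0.252). In both genes most HrasKO skins were above most WT skins, with an overlap at the margin. Pln, the regulator of the calcium pump of muscle, had a difference of 0.93 (SE 0.179), and with the skeletal muscle level as a covariate 0.93 as well.

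Further positive differences were 0.52 (SE 0.0971) for Zmat5, a zinc finger gene of the minor spliceosome, 0.73 (SE 0.141) for Klhdc7a, 0.48 (SE 0.095) for Ccdc167 and 0.78 (SE 0.158) for the relaxin family gene Rln3. HrasKO skins lay wholly above WT skins for Ccdc167 and Rln3, and overlapped them for Zmat5 and Klhdc7a. The level of Klhdc7a was low, at or below 5.03 in all skins. Ccdc167 ran over 7.31, 7.57 and 7.73 in HrasKO skins and over 6.80, 7.13 and 7.29 in WT skins.

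Among the negative differences, Nfatc2ip, an NFAT-interacting protein gene on chromosome 7, was the largest. Its levels were 5.33, 5.88 and 6.11 in HrasKO skins, against 6.14, 6.83 and 7.61 in WT skins. Every HrasKO skin was below every WT skin, and the difference was -1.10 (SE 0.224, limma adjusted p = 0.252). Mtg1, a GTPase of mitochondrial ribosome assembly on the same chromosome, had 7.16, 7.36 and 7.54 in HrasKO skins, against 7.62, 7.93 and 8.29 in WT skins. These ranges also did not meet, with a difference of -0.59 (SE 0.114, limma adjusted p = 0.252). Atg16l2, the fifth of the 20 on chromosome 7 and a relative of the autophagy gene Atg16l1, had -0.68 (SE 0.14), and Atg16l1 itself, on chromosome 1, -0.42 (SE 0.0835).

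Dip2b had -0.55 (SE 0.114), the caspase-activated nuclease gene Dffb -0.48 (SE 0.0994), the mRNA decay factor gene Lsm1 -0.46 (SE 0.0879) and the zinc finger gene Rlf -0.46 (SE 0.0924). The ubiquitin ligase gene Trim39 had -0.42 (SE 0.0866) and the topoisomerase gene Top3a -0.39 (SE 0.0761). The protocadherin gene Pcdhb12 had -0.76 (SE 0.149), at or below 5.16 in all skins. HrasKO skins lay wholly below WT skins for Dip2b, Dffb, Lsm1, Trim39, Top3a and Atg16l2, and overlapped them for Rlf, Atg16l1 and Pcdhb12.

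**Figure D3:**
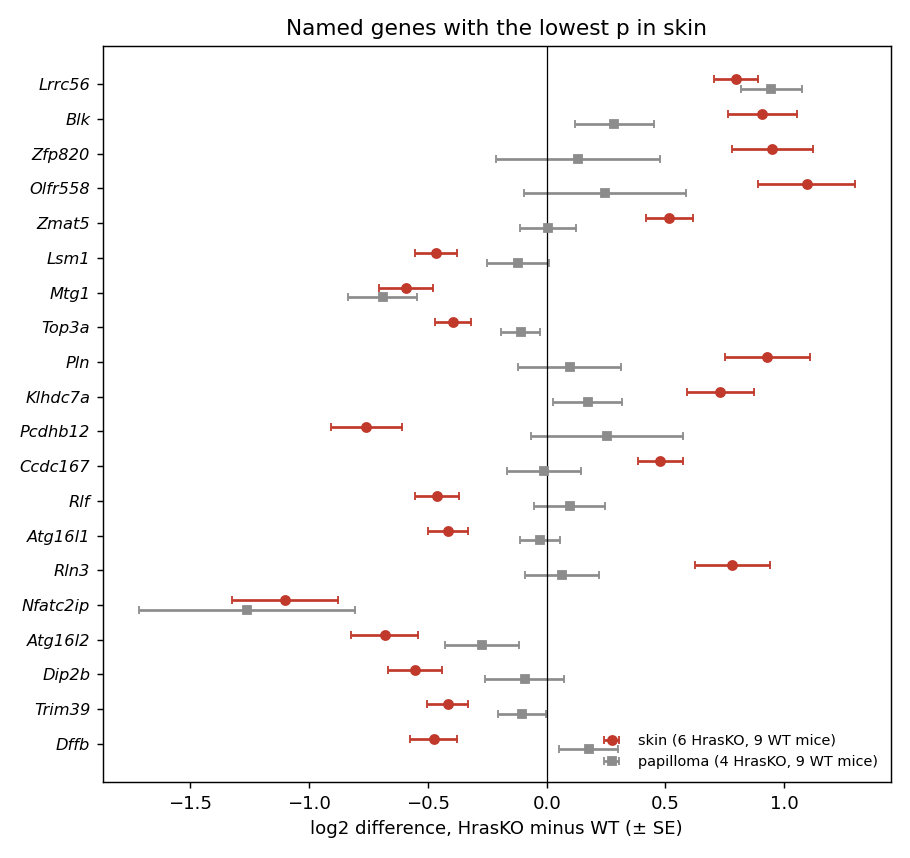
Log2 difference, HrasKO minus WT (horizontal axis, ± SE), of the 20 named genes of lowest p in skin, in order of p; red circles are skin and grey squares papillomas of the same mice. Lrrc56 (0.80 and 0.95), Mtg1 (-0.59 and -0.69) and Nfatc2ip (-1.10 and -1.26) have like differences in both tissues. The papilloma values of Blk (0.28) and Zfp820 (0.13) lie nearer to 0, which choice by low p in skin favours.

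None of the 4 Ras family genes measured passed the test. Nras, the nearest relative of Hras among them, had levels of 8.85, 9.24 and 9.46 in HrasKO skins, against 9.04, 9.38 and 9.52 in WT skins. The ranges overlapped, and the log2 difference was -0.19 (SE 0.107, limma adjusted p = 0.533). Rras2 had -0.28 (SE 0.152, limma adjusted p = 0.523). Rras had 0.30 (SE 0.149, limma adjusted p = 0.472) and Mras 0.48 (SE 0.273, limma adjusted p = 0.535). With the skeletal muscle level as a covariate, the differences of Rras and Mras were 0.06 and 0.21.

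Of the 20 exchange factors and GTPase-activating proteins that switch Ras on and off, none passed, 7 had positive differences and 13 negative ones, and the median was -0.07, or -0.04 without mouse 1706. The exchange factor genes Rasgrp3 and Rasgrp4 had the largest, 0.73 (SE 0.344) and 0.59 (SE 0.323). Of the Raf, MEK, ERK and scaffold genes, 6 of 9 were measured and none passed, with a median of -0.09. Braf had -0.29 (SE 0.194) and Map2k2, which encodes MEK2, -0.26 (SE 0.159), or -0.16 for Map2k2 without mouse 1706.

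The Ras-MAPK target list held 18 measured genes of 20. None passed, 16 had negative differences and 2 positive ones, and the median was -0.37, beside 0.00 over all genes. At an unadjusted p under 0.05, 3 were lower and 0 higher, beside 6.56% lower and 4.43% higher of all genes. The list mean ran over 7.22, 7.57 and 8.06 in HrasKO skins, against 7.36, 7.94 and 8.59 in WT skins, so the groups overlapped over most of their range. Spry1, a feedback inhibitor of receptor kinase signalling, had levels of 8.43, 9.22 and 9.77 in HrasKO skins and 9.36, 9.89 and 10.22 in WT skins. Its difference was -0.67 (SE 0.204, limma adjusted p = 0.280). In batch 1 the means differed by -0.83, and the single pair of batch 2 differed by 0.30, the other way. Hmga2, a chromatin protein gene switched on in many tumours, had a difference of -0.64 (SE 0.53), and its levels were 5.24, 5.75 and 6.14 in HrasKO skins, against 5.18, 5.72 and 9.72 in WT skins. The WT value of 9.72 belonged to mouse 2022 alone.

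The list median was -0.29 without mouse 1706 and -0.27 with the adipocyte level as a covariate, and ran over -0.48 to -0.22 in the 27 alternative fits. It was -0.22 with the skeletal muscle level as a covariate. The adipocyte and muscle markers themselves are described below.

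The AP-1 and immediate early genes, which report recent growth factor and stress signals, had no member past the threshold. Negative differences were found in 8 of the 9 measured, with a median of -0.25, or -0.15 without mouse 1706. Lists could share genes, as this list and the Ras-MAPK target list both held Fosl1, which was not measured. Counts from different lists are thus not independent. Ier2 had levels of 5.58, 6.06 and 6.70 in HrasKO skins, against 5.76, 6.66 and 7.43 in WT skins, which overlap. Its difference was -0.62 (SE 0.249, limma adjusted p = 0.382) and that of Egr1 -0.48 (SE 0.315, limma adjusted p = 0.597). Both had small positive differences in the pair of batch 2, 0.08 for Ier2 and 0.23 for Egr1. Of the EGF receptor family, 11 of 12 genes were measured, none passed, 7 were negative and the median was -0.27. The receptor gene Erbb3 had -0.53 (SE 0.265) and the ligand gene Epgn 0.85 (SE 0.501). Without mouse 1706 the difference of Erbb3 was -0.25 and the family median -0.09. The family median was 0.01 with the skeletal muscle level as a covariate.

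In the epidermis, none of the 10 keratinocyte markers passed. Their median difference was -0.16, and 8 were negative. It was -0.07 without mouse 1706 and 0.00 with the skeletal muscle level as a covariate. Col17a1, a hemidesmosomal collagen, had -0.44 (SE 0.244) and the desmosomal cadherin gene Dsg3 -0.42 (SE 0.297). Without mouse 1706 these were -0.23 and -0.19. Cornified differentiation genes, which build the outer barrier, had 16 of 20 measured, no call and a median of 0.04, or 0.28 without mouse 1706. The transglutaminase gene Tgm3 had -1.26 (SE 0.655) and Sprr1b 0.70 (SE 0.752). Genes of hyperplastic epidermis, 16 of 16 measured, had a median of 0.25 and no call, with 0.42 without mouse 1706 and -0.16 with the adipocyte level as a covariate. Il1f6, an epidermal cytokine of the interleukin-1 family, had 1.15 (SE 0.49, limma adjusted p = 0.417) and Sprr2d 0.86 (SE 0.695). Both went the other way in the single pair of batch 2: Il1f6 had 1.39 in batch 1 and -0.36 in batch 2, and Sprr2d 1.12 and -0.73. Cell cycle genes, 17 of 20 measured, had a median of 0.04 and no call, with 0.40 (SE 0.464) for Ccnb2 and -0.40 (SE 0.372) for Mcm6. Without mouse 1706 the cell cycle median was 0.33, the Ccnb2 difference 0.61 and the Mcm6 difference -0.10. With the skeletal muscle level as a covariate the median was 0.74.

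Of the 31 lists, that of the hair shaft and growing follicle varied most among the skins of each genotype. The mean of 24 hair shaft and growing follicle genes, expressed in the growth phase of the hair cycle, ran over 4.76, 7.93 and 10.45 in HrasKO skins, against 4.75, 9.39 and 10.93 in WT skins. It was below 6 in 2 of 6 HrasKO skins and in 4 of 9 WT skins, and no skin lay between 5.08 and 6.94. Both genotypes thus held low and high skins. None of the 24 passed and the median was -0.45, but it was 0.05 without mouse 1706 and 0.06 without HrasKO mouse 1616, each of them a low skin. It was -1.08 without HrasKO mouse 1537, -1.29 with the adipocyte level as a covariate and 0.47 with the skeletal muscle level. The keratin gene Krt86 had -0.90 (SE 1.72) and Padi3, a peptidylarginine deiminase of the follicle, -0.80 (SE 1.22). Without mouse 1706 these were -0.35 and -0.42. Dsg4, Krt82, Gprc5d, Crnn and Calhm4, the genes outside the list whose profile over the 15 skins was most like it by Pearson correlation, had differences of -0.50, -0.46, -0.43, -0.42 and -0.59, with SE of 1.28 to 1.81. Without mouse 1706 these 5 differences lay between -0.04 and 0.26. With the hair follicle level as a covariate, Lrrc56 again was the 1 gene called, with a difference of 0.79 and a limma adjusted p of 0.00655. The 15 hair follicle stem cell genes had a median of -0.28 and no call, and the median was -0.01 without mouse 1706, 0.04 with the skeletal muscle covariate and -0.02 with the adipocyte covariate. Values were 0.54 (SE 0.218) for the stem cell surface marker Cd34 and -0.47 (SE 0.361) for Foxc1, or -0.16 for Foxc1 without mouse 1706.

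Skeletal muscle and adipocyte markers had the largest median differences of the 31 lists, though no member passed. In bulk skin, more cells of a type and more RNA per cell cannot be told apart. All 14 skeletal muscle genes had positive differences, with a median of 1.81 and a range of 0.43 to 2.98, and 7 were higher at an unadjusted p under 0.05, beside 4.43% of all genes. The list mean ran over 9.28, 10.07 and 11.45 in HrasKO skins, against 5.45, 7.63 and 11.15 in WT skins. All HrasKO skins were in the upper range, while WT skins were spread from low to high, 2 of them above 5 of the HrasKO skins. Myh4, a fast myosin heavy chain, had 9.16, 9.98 and 12.14 in HrasKO skins, against 4.56, 6.38 and 11.997 in WT skins. Its log2 difference was 2.98 (SE 1.15, limma adjusted p = 0.359) and that of the myosin light chain gene Myl1 2.29 (SE 0.879, limma adjusted p = 0.357). The list median was 1.53 without mouse 1706.

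All 9 adipocyte genes measured had positive differences, with a median of 1.71, and 6 were higher at an unadjusted p under 0.05, beside the same 4.43%. The list mean ran over 8.26, 10.80 and 11.37 in HrasKO skins, against 7.03, 9.16 and 10.23 in WT skins. HrasKO skins filled the top of the range, but their lowest were within the WT range.
Plin1, which coats the fat droplet, had 5.83, 10.32 and 10.95 in HrasKO skins, against 4.36, 7.63 and 9.34 in WT skins. Its log2 difference was 2.30 (SE 0.945, limma adjusted p = 0.395), and that of the adipokine gene Adipoq 2.19 (SE 0.838, limma adjusted p = 0.357). The batches went opposite ways: in batch 1 the means of Plin1 differed by 3.08 and those of Adipoq by 2.81, and in the single pair of batch 2 they differed by -2.51 and -1.60. The adipocyte median was 1.47 without mouse 1706 and 2.42 in batch 1 alone. With the adipocyte level as a covariate, 659 of the 18772 genes had an unadjusted limma p under 0.05, against 2062 (11%) without it. With the skeletal muscle level as a covariate, 2634 of the 18772 did. Both levels were on average higher in HrasKO skins, so these covariates overlap in part with genotype. A fit with them can take up part of the genotype difference itself, and what these counts owe to that was not tested.

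**Figure D4:**
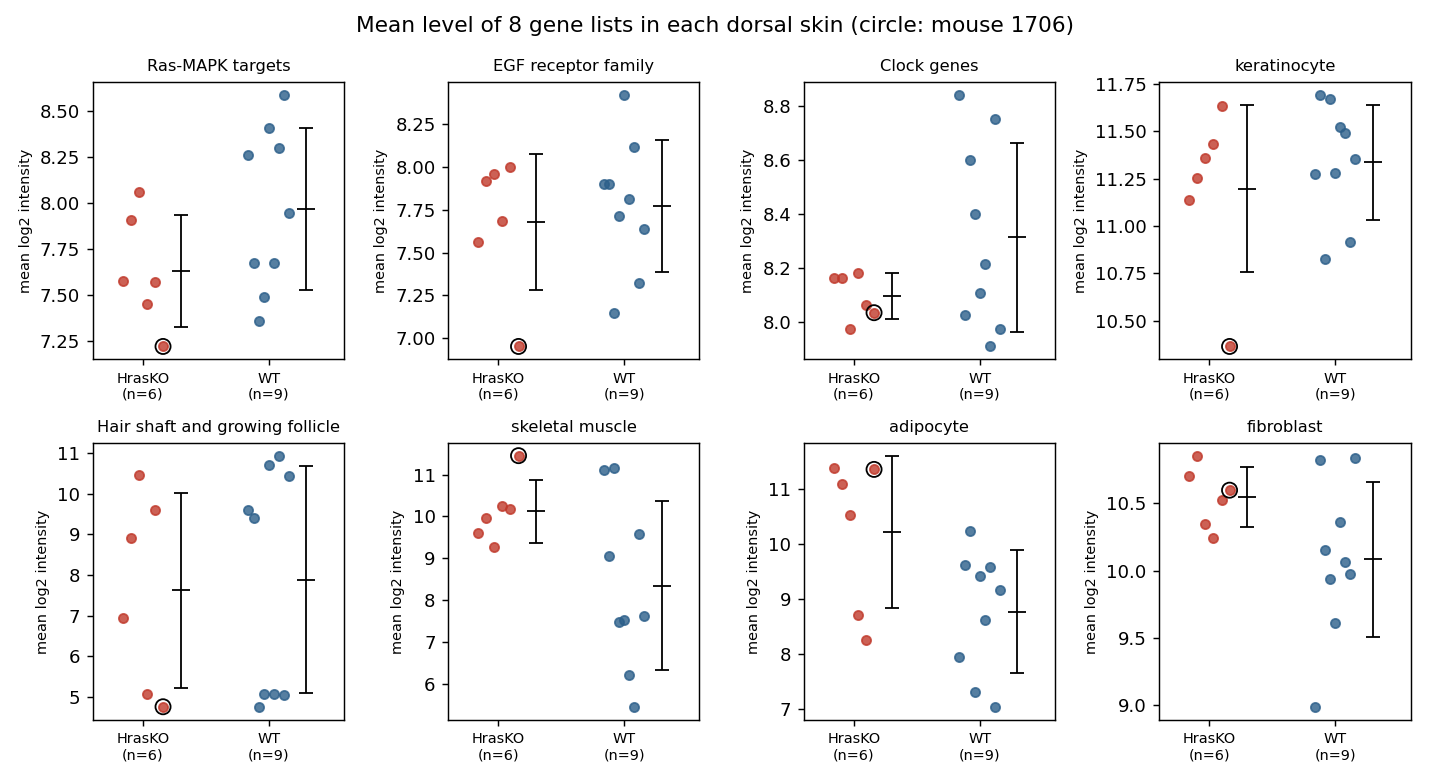
Mean log2 intensity (vertical axes) of 8 gene lists in each skin, with HrasKO (6 mice) left of WT (9 mice); bars are mean ± SD and the circled point is mouse 1706. Skeletal muscle means are 9.28 to 11.45 in HrasKO and 5.45 to 11.15 in WT skins, hair follicle means fall into low and high skins in both genotypes, and the groups overlap in all 8 lists.

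Stromal lists had smaller medians and no call. Fibroblast markers had a median of 0.38, with 9 of 10 positive. Dpt, a dermal matrix protein gene, had levels of 10.99, 11.49 and 11.998 in HrasKO skins, against 8.73, 10.49 and 11.59 in WT skins. These overlapped, and the difference was 1.09 (SE 0.37, limma adjusted p = 0.307), or 0.44 with the adipocyte level as a covariate. In batch 1 the Dpt means differed by 1.37, and the single pair of batch 2 differed by -0.60. Pi16, a marker of adventitial fibroblasts, had 0.81 (SE 0.464). Collagen and matrix genes had a median of 0.18, with Col14a1 at 1.22 (SE 0.676) and Col6a3 at 0.51 (SE 0.525). Endothelial markers were positive in 9 of 9, with a median of 0.22, which was 0.09 without mouse 1706 and -0.06 with the skeletal muscle level as a covariate. The angiopoietin receptor gene Tek had 0.90 (SE 0.271, limma adjusted p = 0.279), or 0.47 with the skeletal muscle level as a covariate. Cdh5 had 0.32 (SE 0.274), or 0.15 without mouse 1706. Of the nerve and Schwann cell markers 4 of 8 were measured, all positive, with a median of 0.24. S100b had 5.27, 7.13 and 7.35 in HrasKO skins, against 4.97, 5.47 and 6.03 in WT skins, which overlap at the low end. Its difference was 1.18 (SE 0.337, limma adjusted p = 0.265), or 0.55 with the adipocyte level as a covariate. The S100b difference was 1.42 in batch 1 and -0.30 in the single pair of batch 2. Sebocyte markers had a median of 0.25, or 0.54 without mouse 1706, with Scd3 at -1.05 (SE 0.959) and Dgat2l6 at 0.74 (SE 0.77). Without that mouse Scd3 had -0.63 and Dgat2l6 1.40. The melanocyte median was -0.13, or -0.07 without mouse 1706, with Tyrp1 at 0.22 (SE 0.94) and Oca2 at -0.20 (SE 0.357). Tyrp1 had 0.65 without that mouse. The 2 blood genes measured had a median of 0.32, with Alas2 at 0.76 (SE 0.28) and Slc4a1 at -0.12 (SE 0.608). Slc4a1 had -0.04 without mouse 1706.

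Immune cell lists had no member past the threshold. B cell and plasma cell markers had a median of 0.15, and -0.04 without mouse 1706. The joining chain gene Jchain had a difference of 0.31 (SE 0.427), or -0.04 without mouse 1706. Ms4a1, which encodes CD20, had levels of 3.67, 3.93 and 5.48 in HrasKO skins, against 3.72, 3.82 and 4.58 in WT skins. Both groups were thus low for Ms4a1 apart from single mice. T cell markers had a median of 0.08, with Cd4 at 0.82 (SE 0.489) and Trat1 at -0.68 (SE 0.477). NK and cytotoxic cell markers had a median of -0.03, or -0.10 without mouse 1706, with Prf1, the perforin gene, at -0.65 (SE 0.324) and the receptor gene Klrd1 at -0.56 (SE 0.21, limma adjusted p = 0.342). Macrophage markers had a median of 0.24, which was 0.11 without mouse 1706 and -0.16 with the skeletal muscle level as a covariate. Adgre1 had 0.74 (SE 0.403) and C1qb 0.63 (SE 0.493), or 0.41 for C1qb without mouse 1706. The neutrophil median was -0.30, or 0.03 without HrasKO mouse 1616, with Retnlg at 0.76 (SE 0.707) and Trem1 at -0.52 (SE 0.341). Without mouse 1706 Retnlg had 0.24. Mast cell genes had a median of 0.06, or -0.09 without mouse 1706, with the protease genes Mcpt4 at 0.77 (SE 0.32, limma adjusted p = 0.398) and Tpsab1 at -0.85 (SE 0.815). Langerhans cell genes had a median of 0.24, with Itgax at 0.61 (SE 0.224, limma adjusted p = 0.336) and Cd74 at 0.43 (SE 0.264).

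The clock genes, which drive daily rhythms, had 14 of 16 measured, no call, 12 negative differences and a median of -0.21. The median was -0.42 with the skeletal muscle level as a covariate and -0.12 with the adipocyte level. Cry1, a repressor of the clock, had levels of 6.25, 6.71 and 7.13 in HrasKO skins, against 6.75, 7.61 and 8.29 in WT skins. The ranges overlapped at their ends, and the log2 difference was -0.88 (SE 0.203, limma adjusted p = 0.260). Its relative Cry2 had -0.59 (SE 0.247, limma adjusted p = 0.402), with -0.73 in batch 1 and 0.29 in the single pair of batch 2. The mean of the clock list ran over 7.98, 8.11 and 8.18 in HrasKO skins, against 7.91, 8.21 and 8.84 in WT skins, so the HrasKO skins lay in a narrow band inside the WT range. The labels give no time of day for the taking of the skins. In papillomas of the same mice the Cry1 difference was 0.00 (SE 0.163), and in the joint fit of both tissues papilloma minus skin was 0.88 (SE 0.263, limma p = 0.00258, adjusted p = 0.828). Cry1 was named for its large difference in skin, a choice that favours a smaller one in papillomas.

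Interferon response genes had 14 of 16 measured, no call and a median of 0.15, with Oasl2 at 0.74 (SE 0.496) and Oas2 at 0.60 (SE 0.467). Carcinogen detoxification genes and Nrf2 targets had 16 of 17 measured, no call and a median of 0.05, or 0.16 without mouse 1706. The glutathione transferase gene Gstt1 had levels of 8.49, 9.08 and 9.39 in HrasKO skins, against 6.82, 7.89 and 9.60 in WT skins. These overlapped, with a difference of 1.07 (SE 0.354, limma adjusted p = 0.302), or 0.67 with the skeletal muscle level as a covariate and 0.69 with the adipocyte level. Gsta4 had 0.47 (SE 0.239).

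The genotype difference was then set against that in papillomas of the same mice, 4 HrasKO and 9 WT mice with the 8 HrasKO and 19 WT arrays averaged per mouse. In papillomas 1 gene, Bub3, passed (0.00533%) and 959 had an unadjusted limma p under 0.05 (5.11%). No gene had a difference that itself differed between the tissues in limma with mouse as a random block (0%), and 1037 had an unadjusted p under 0.05 (5.52%). The genes given next were named for a low p or a large difference in skin. That choice by itself favours smaller differences in papillomas, so nothing is read from a smaller papilloma value. Dffb had a papilloma difference of 0.18 (SE 0.124), of the other sign than in skin. Its papilloma minus skin value was 0.65 (SE 0.149, limma p = 0.000185, adjusted p = 0.828). Blk had a papilloma difference of 0.28 (SE 0.166), and papilloma minus skin was -0.65 (SE 0.215, limma p = 0.00568, adjusted p = 0.828). For Olfr558 it was -0.85 (SE 0.372, limma adjusted p = 0.850). Mtg1 had -0.69 (SE 0.145) in papillomas and Nfatc2ip -1.26 (SE 0.456), and in the joint fit papilloma minus skin was -0.05 (SE 0.184) for Mtg1 and -0.13 (SE 0.465) for Nfatc2ip. For Adipoq it was -1.73 (SE 0.987) and for Myh4 -1.83 (SE 1.41), both with wide errors. None of these passed after adjustment, so no difference is shown to be particular to skin.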

How the data were processed

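Whole-transcript Affymetrix arrays of 15 dorsal skins, 1 per mouse, were used. The deposited values are log2 intensities from RMA, per the submitters' processing notes, which do not give its version. Precision is limited by how many arrays there are. Of 28204 probe sets, 21141 had 1 gene symbol, and the probe set of highest mean stood for a gene, which left 18772 genes.

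Genotypes were compared in R 4.3.3 with limma 3.58.1 (linear fits and moderated, two-sided tests; batch as a covariate). A Benjamini-Hochberg adjusted p under 0.05 counted as passing. The procedure was tested on simulated data. Papilloma arrays were averaged per mouse, and skin was set against papilloma with a random block for mouse. The comparison, its 31 gene lists, which were given no test, and the naming rule were chosen with earlier results of these data known.

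Named were genes that passed and then those of lowest p, up to 20; all Ras genes; the 5 nearest nameable genes on each side of Hras; the 2 members of each list with the largest difference where none passed; and 5 genes most like the hair follicle list. Alternatives were no batch term, batch 1 alone, each mouse left out, the array that stands apart left out, and trended and robust eBayes. Further ones were the mean of probe sets, repeated quantile normalization, array weights, hair follicle level as a covariate and all tissues in one fit. A filter on low values kept the 9836 genes above a level cut in 6 or more skins. Muscle and adipocyte levels as covariates were added after seeing the data, and both overlap in part with genotype. Promoter windows are from RefSeq (GRCm38.p6).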

Additional observations from a re-analysis of the deposited data

Results flagged for a closer look

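Within a genotype, 19 of 258 sets of 6 or 9 skins held 1 mouse far from the rest by Dixon's gap test, which chance gives in about 1 of 20. These sets were the named genes and the list means.

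Of the 11 in HrasKO skins, 8 belonged to mouse 1706. It was lowest for Mcm6 at 6.08 (the next skin had 7.50), Dgat2l6 at 5.92 (9.31), Pkp3 at 7.12 (8.59) and Rassf7 at 6.79 (8.02), and highest for Ms4a1 at 5.48 (4.07). It was also lowest in the mean of the hair follicle stem cell list at 7.75 (8.64), the detoxification and Nrf2 list at 8.41 (8.86) and the sebocyte list at 8.86 (10.44). Mouse 1537 was highest for Zfp820 at 6.37 (5.75). Mouse 1664, the HrasKO mouse of batch 2, was lowest for Cd74 at 10.58 (11.32) and Alas2 at 6.14 (7.33).

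Among WT skins, mouse 2022 was highest for Hmga2 at 9.72 (7.005). Mouse 1508 was highest for Ms4a1 at 4.58 (4.01), Retnlg at 8.59 (5.60) and the nerve and Schwann cell list mean at 8.28 (7.84). Mouse 1383 was lowest for Cd74 at 9.62 (10.69), mouse 1815 highest for Cdhr5 at 5.75 (4.67), mouse 1456 highest for the hyperplastic epidermis list mean at 10.18 (8.62), and mouse 1717 highest for the NK and cytotoxic cell list mean at 5.68 (5.25).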

How the results depend on the processing

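The count of 1 gene, Lrrc56, was the same without the batch term, without mouse 1706, with trended and robust eBayes, with the mean of probe sets and with hair follicle or adipocyte level as a covariate. It was 0 in limma in batch 1 alone, where 2539 of 18772 genes had an unadjusted p under 0.05. It was also 0 after the filter on low values, which removes Lrrc56 and left 1340 such genes of the 9836 kept. Repeated quantile normalization gave 0 as well (1985 of 18772, Lrrc56 limma adjusted p = 0.0552), as did the muscle covariate (2634 of 18772). Array weights gave 3 genes, Lrrc56, Blk and Zfp820. All tissues in one fit, where tumours share the estimate of spread, gave 377 (141 higher, 236 lower), among them 6 of the 337 list members measured, a share like that of all 18772 genes: Actn3, Myh4, Adipoq and S100b higher, Cry1 and Ier2 lower. Leaving out 1 mouse gave 0 to 2: 0 without 1509, 1616, 1664 or 1456, and 2 without 1949 (with Blk) or 2022 (with Zfp820). Genes whose difference differed between tissues numbered 0 in the 3 alternatives run. Of 98 named genes 20 changed sign in at least 1 alternative, none while past the threshold, and of 31 list medians 17 did. The causes were not tested. No paired analysis was possible because HrasKO and WT skins come from different mice and replicate numbers only name them.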

Other observations

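Bub3, a mitotic checkpoint gene on chromosome 7, was the 1 gene that passed in papillomas and is named here after its value was seen. Its papilloma means were 9.06 in HrasKO mice and 9.58 in WT mice, a log2 difference of -0.52 (SE 0.0571, limma adjusted p = 0.0188). In skin its mean was 8.69 ± 0.125 in HrasKO mice and 8.77 ± 0.155 in WT mice (SD, n = 6 and 9), a difference of -0.08 (SE 0.0875, limma adjusted p = 0.776).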
